A study of Mus musculus with 2 samples.

Results

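The subunits of the constitutive proteasome were described in dendritic cells grown from the bone marrow of C57BL/6J mice, 1 wild-type sample and 1 sample labelled miR155-/-, which lacks the microRNA miR-155. Marrow cells of both genotypes were cultured with 20 ng/ml GM-CSF, a growth factor that yields dendritic cells, and after 7 days the medium was exchanged for one holding 10 ng/ml LPS, lipopolysaccharide of bacterial outer membranes that triggers Toll-like receptor signalling. Both groups therefore share the growth factor and the LPS, no unstimulated cells were analysed here, and how long LPS was present and how many mice gave the marrow are not stated in the labels. The growth protocol in the labels names macrophages, whereas all other labels name dendritic cells. Such cultures are mixed, and in bulk RNA fewer cells of a type and less RNA per cell cannot be told apart.

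The members are the genes that the platform annotation gives as the only gene of an Affymetrix probe set and whose symbol is Psma, Psmb, Psmc, Psmd, Psme or Psmg followed by a number, without the immunoproteasome genes Psmb8, Psmb9 and Psmb10. There were 43 of them among 18193 genes named on the arrays, with 92 probe sets. The activator gene Psme2 was left out because its probe set names a further gene. Of the 43 genes, 42 were measured, meaning that the normalized signal lay above the median of all signals (an intensity of 67.6, the floor) on at least 1 array. The remaining gene, Psmb11, which encodes a catalytic subunit of the thymus, lay below the floor on both arrays, with a signal of 42.4 on the wild-type array and of 26.5 on the knockout array. The rule used symbols only and no measured value.

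The proteasome is the protease that degrades ubiquitin-tagged proteins. Its barrel-shaped core particle is built of rings of alpha subunits, which form the gate, and rings of beta subunits, which hold the proteolytic sites; the regulatory particle that caps it has a base with a ring of unfolding ATPases and a lid that removes ubiquitin chains. Alternative activators open the gate without ATP, and dedicated chaperones assemble the particles. In dendritic cells the proteasome also makes the peptides shown on MHC class I, and interferon replaces the catalytic beta subunits by those of the immunoproteasome. In mammalian cells the transcription factor encoded by Nfe2l1 raises the proteasome genes together when the proteasome is impaired, through antioxidant response elements in their promoters.

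The mature sequence of the deleted microRNA is shown first because its seed, bases 2 to 8, in capitals, is the part that pairs with target transcripts. It comes from RefSeq (GRCm38.p6) and lies at chr16:84714143-84714165 on the plus strand.
mmu-miR-155-5p: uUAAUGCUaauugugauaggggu

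Promoter sequences of 35 member genes were matched in RefSeq (GRCm38.p6), as 37 windows from 250 bases before to 50 after a transcript start, and searched for 10 short motifs on both strands, of which 3 longer ones are given by name. CCGGAAG, the core of sites for ETS factors, was found in 15 of the 37 windows, or 40.5%, against 16.7% of the 12278 windows of all measured genes and 8.86% of all 32851 windows. TGACNNNGC, the core of the antioxidant response element, was in 6 windows (16.2%, against 14.5% of measured genes and 12.4% of all windows), and its fuller form TGACTCAGC was in none (0.489% and 0.454%). GGGCGG, the GC box, was in 21 windows (56.8%, against 59.7% and 35.7%), and CCAAT in 13 (35.1%, against 37.0% and 37.4%). A core of interferon-stimulated response elements was in 5 windows (13.5%, against 3.13% and 3.44%), those of Psmb3, Psmd4, Psmd9, Psme1 and Psmg4. CACGTG, the E-box, was in 3 windows (8.11%, against 9.60% and 7.15%) and the palindrome of the factor NRF-1 in 2 (5.41%, against 246 of the 12278 windows of measured genes and 0.971% of all windows). TGACGTCA, the cAMP response element (2.89% and 1.79%), and a consensus of NF-kB sites (0.505% and 0.411%) were in none of the members' windows. TGACTCAGC is a special case of TGACNNNGC, so their matches would overlap. These matches describe letters and show no binding.

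The 250 bases before the start are printed for 5 members, chosen for the results they bear on, with the named motif in capitals. Psmb5 and Psmb6 encode catalytic subunits and hold TGACNNNGC, Psmc4 has the highest difference of all members and holds GGGCGG on both strands, and Psmc6 and Psmd11 both hold CCGGAAG while all measured probe sets of the former were higher and all of the latter lower in knockout cells. Their places in GRCm38.p6 are chr14:54617996-54618245 (minus strand), chr11:70525107-70525356 (plus), chr7:28050093-28050342 (minus), chr14:45329574-45329823 (plus) and chr11:80428365-80428614 (plus), in that order.
Psmb5: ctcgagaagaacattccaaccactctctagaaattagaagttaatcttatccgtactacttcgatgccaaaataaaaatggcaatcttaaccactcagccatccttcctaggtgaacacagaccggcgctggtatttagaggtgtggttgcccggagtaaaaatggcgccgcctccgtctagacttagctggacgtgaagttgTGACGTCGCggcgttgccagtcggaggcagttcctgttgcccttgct
Psmb6: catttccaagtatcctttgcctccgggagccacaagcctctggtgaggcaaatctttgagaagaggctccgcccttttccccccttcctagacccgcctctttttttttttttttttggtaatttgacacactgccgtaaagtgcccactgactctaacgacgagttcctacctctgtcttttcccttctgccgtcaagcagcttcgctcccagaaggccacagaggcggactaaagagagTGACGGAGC
Psmc4: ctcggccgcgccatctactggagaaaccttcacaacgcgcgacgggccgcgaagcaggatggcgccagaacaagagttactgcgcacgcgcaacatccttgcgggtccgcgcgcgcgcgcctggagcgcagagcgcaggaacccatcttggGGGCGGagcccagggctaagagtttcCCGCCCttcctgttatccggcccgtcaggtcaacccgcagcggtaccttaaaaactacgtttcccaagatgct
Psmc6: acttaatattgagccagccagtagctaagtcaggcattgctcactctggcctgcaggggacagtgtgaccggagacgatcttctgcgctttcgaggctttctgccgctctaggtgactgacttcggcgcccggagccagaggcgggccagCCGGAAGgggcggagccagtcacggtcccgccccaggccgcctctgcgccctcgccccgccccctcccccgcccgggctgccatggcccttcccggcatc
Psmd11: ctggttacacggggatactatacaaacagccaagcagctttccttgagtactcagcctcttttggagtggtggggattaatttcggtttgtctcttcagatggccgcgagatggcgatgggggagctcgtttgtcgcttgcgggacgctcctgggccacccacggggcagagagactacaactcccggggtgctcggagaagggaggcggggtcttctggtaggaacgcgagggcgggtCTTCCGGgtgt

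The arrays themselves set the limits of what follows. The median deposited intensity was 58.4 on the wild-type and 78.3 on the knockout array, so the values were quantile normalized, and every difference is the knockout value less the wild-type value in log2 units, relative to the bulk of genes. Without scaling, the median measured gene was 0.54 higher in knockout cells. Each genotype has a single array, so replicate spread is unknown, no test was made, and the number of arrays limits the precision. The measurable error is how far probe sets for a gene differ from each other, an SD of 0.31 over 13856 measured probe sets of 5163 genes, which holds no variation between mice or cultures. Mir155hg, the transcript that hosts miR-155, was at 1136 in wild-type cells and at 159 in knockout cells, in the direction of the labels.

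Proteasome subunit transcripts were at nearly the same relative level in wild-type and knockout cells. Over the 42 measured genes the median difference was -0.01, against 0.01 over all 11878 measured genes. Of the members 18 were higher and 24 lower in knockout cells. By signal, 51.5% of all measured genes were higher and 48.5% lower. Only Psmc4 was at least 25% higher in knockout cells, a size passed by 15.0% of measured genes, and only Psmc3 and Psma8 were at least 25% higher in wild-type cells, a size passed by 13.8%. The call of Psmc4 rested on its brightest probe set. With the mean of all measured probe sets of a gene its difference was 0.19, and Psmd9, at 0.40, was then the only member past 25% in that direction. With low values set to the floor, no member passed 50% in either direction, against 8.67% of measured genes. For Psma8, below the floor in knockout cells, this size is a lower limit, and with no floor its difference was -1.04. Psma8 was measured only through the wild-type array, so its direction was fixed by that rule. For 38 of the 42 members the difference was smaller than the SD between probe sets, as it was for 69.6% of all measured genes and 81.0% of the brightest tertile of them, where 36 of the members lie.

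Most members are bright, and bright genes differed less on these arrays. The median signal, taken over both arrays, was 2019 for the members and 276 for all measured genes, and the brightest tertile began at 504. In that tertile 9.45% of 3959 genes were at least 25% higher in knockout and 8.16% at least 25% higher in wild-type cells. The SD of the differences was 0.17 over the members, 0.26 over the tertile and 0.34 over all measured genes. The middle 50% of the members ran from -0.13 to 0.10, and that of the tertile from -0.13 to 0.16. The narrow range of the members thus goes with a high signal, and how much of it signal alone would give was not tested.

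**Figure D1:**
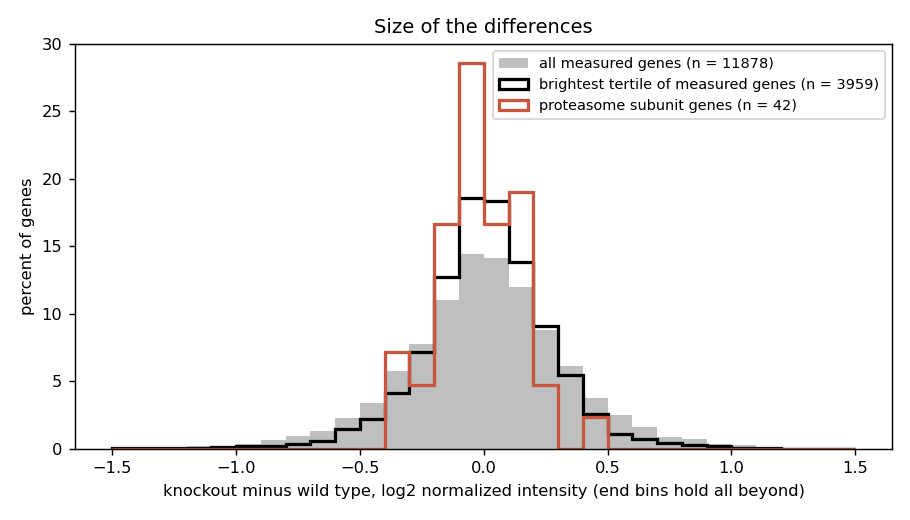
Share of genes, in percent (vertical axis), by log2 difference of knockout minus wild type (horizontal axis, in bins of 0.1), for all measured genes (grey bars), the brightest tertile of them (black line) and the 42 proteasome subunit genes (red line). The members lie between -0.39 and 0.42, with a median of -0.01.

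**Figure D2:**
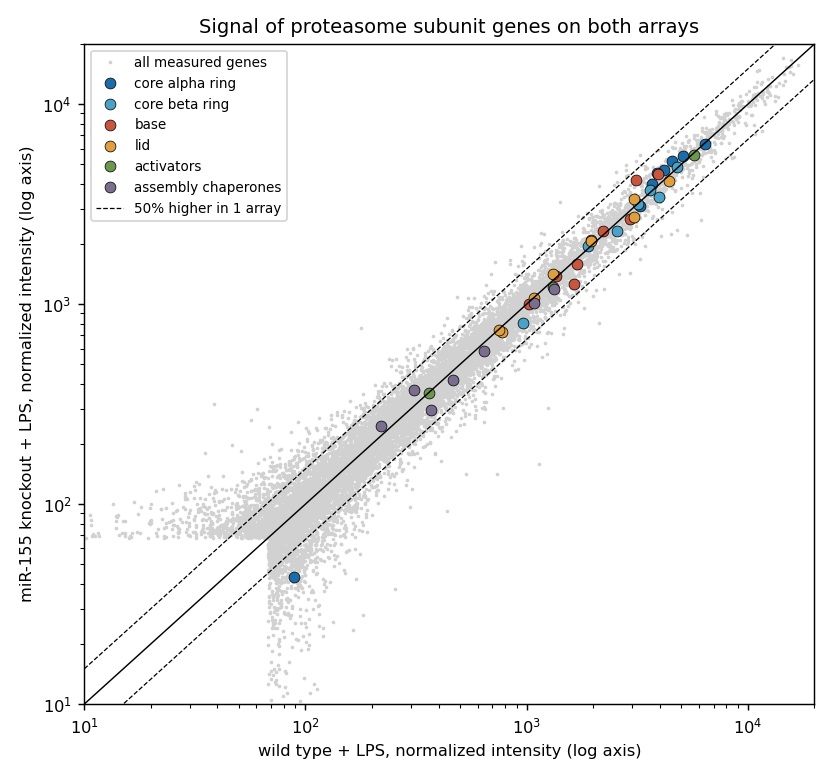
Normalized intensity on the wild-type array (horizontal) and the knockout array (vertical), both on log axes, for all measured genes (grey; the dimmest lie outside the axes) and the 42 measured proteasome subunit genes, coloured by role. All members other than Psma8, at the lower left, lie above the floor on both arrays and between the dashed lines that mark a 50% excess on 1 array.

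The alpha subunits form the outer rings of the core and its gate, and they had the highest median of the 6 role groups, 0.12 over 8 genes. Psma5 was the highest, at 3896 in wild-type cells against 4519 in knockout cells, a difference of 0.21. A second measured probe set of Psma5 differed by -0.13, so the direction differed within the gene. Psma1 was at 4539 and 5173 (0.19), with differences of 0.03, -0.23 and 0.31 at its dimmer probe sets. Psma2 was at 4186 and 4661 (0.16), and Psma7 at 3670 and 3984 (0.12), with -0.04 at its second probe set. At the probe sets used all of these were brighter on the knockout array, each by less than the SD between probe sets. Psma3 was at 5089 and 5506 (0.11), with 2 of 2 probe sets higher. Psma6 had signals of 6417 and 6294 (-0.03) and Psma4 of 3254 and 3109 (-0.07). Psma8 encodes an alpha subunit of the testis, and its only probe set gave 88.6 in wild-type cells against 43.1 in knockout cells, below the floor, so that it was at least 1.31-fold lower. A signal that close to the floor does not show that Psma8 was expressed. Without it the other 7 alpha genes had a median of 0.12 and a range from -0.07 to 0.21. With the mean of all measured probe sets the median of the alpha ring was 0.05, with Psma1 at 0.08, Psma5 at 0.04 and Psma7 at 0.04.

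Beta subunits carry the proteolytic sites, and their 7 measured genes had a median of -0.01. Among the catalytic subunits, Psmb5, of the chymotrypsin-like site, was at 3966 in wild-type cells against 3438 in knockout cells, a difference of -0.21. Psmb6, of the caspase-like site, was at 3596 and 3744 (0.06), and Psmb7, of the trypsin-like site, at 1896 and 1964 (0.05). The catalytic genes therefore did not differ in 1 direction. The promoters of Psmb5 and Psmb6 both hold TGACNNNGC, and whether this motif bears on their values was not tested. Of the structural subunits, Psmb2 was the lowest of the ring, at 962 and 804 (-0.26). Psmb1 was at 2566 and 2321 (-0.14) at its brightest probe set, while its dimmer ones had differences of 0.22 and -0.47. Psmb3 (3203 and 3182) and Psmb4 (4764 and 4860) were the closest to equal, at -0.01 and 0.03, and their second probe sets differed by 0.00 and 0.00. Within the ring, Psmb2 and Psmb5 thus stood lowest, and no beta gene was higher by more than 0.06.

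The base holds the 6 ATPases that unfold substrates and the large non-ATPase scaffold subunits, and it held both the highest member and the lowest one above the floor on both arrays. Psmc4, an ATPase, was at 3118 in wild-type cells against 4164 in knockout cells, a difference of 0.42. Its other probe set was at 1476 and 1429, with a difference of -0.05, so the excess was seen at only 1 of 2 probe sets. Psmc3, also an ATPase and with a single probe set, was at 1630 and 1261 (-0.37). These subunits of the same ATPase ring stood at opposite ends of the members. The other ATPases lay between them. Psmc2 was at 3919 and 4458 (0.19), with 3 of 3 probe sets higher, one of them by only 0.00. Psmc6 was at 1954 and 2100 (0.10), with 3 of 3 higher. Psmc1 (1356 and 1386) and Psmc5 (1020 and 996) had differences of 0.03 and -0.03. Of the scaffold and ubiquitin-binding subunits, Psmd1 was at 2217 and 2334 (0.07), Psmd2 at 2921 and 2666 (-0.13), and the ubiquitin receptor Psmd4 at 1691 and 1593 (-0.09). The median of the 9 genes of the base was 0.03.

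Lid subunits surround Psmd14, the metalloprotease that cuts ubiquitin off the substrate, and this group of 8 had a median of -0.00. None of them passed 25% in either direction, against 15.0% of all measured genes for higher and 13.8% for lower in knockout cells. Psmd14 was the highest of the lid, at 3050 in wild-type cells against 3342 in knockout cells (0.13). Psmd8 was the lowest, at 3060 and 2718 (-0.17). The rest lay between these values. Psmd12 was at 1320 and 1412 (0.10), and Psmd6 at 1953 and 2073 (0.09) with 2 of 2 probe sets higher. Psmd3 (748 and 747) and Psmd7 (1082 and 1077) had differences of -0.00 and -0.01. Psmd11, the subunit with the most probe sets, 8, had 4 of them measured, all lower in knockout cells, with 4406 against 4140 at the brightest (-0.09) and differences of -0.17, -0.19 and -0.07 at the others. Psmd13 was at 775 and 729 (-0.09), and all of its 3 measured probe sets were lower.

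Of the activators, 3 genes were members, and their differences were small at the probe sets used. Psme1, a subunit of the interferon-inducible activator, was at 5705 in wild-type cells against 5539 in knockout cells (-0.04). Psme3, the nuclear activator, was at 363 and 361 (-0.01), and its second measured probe set differed by 0.19. Psme4, a large activator linked to histone breakdown, was at 1317 and 1220 (-0.11), but its other measured probe sets differed by 0.24, 0.16 and -0.34. The direction of Psme4 therefore turned with the probe set, and without the less specific probe sets, those with _x or _s in their names, its difference was 0.24.

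Assembly chaperones had the lowest median of the 6 role groups, -0.13 over 7 genes, and they were also among the dimmer members. Psmg4, a chaperone of the alpha ring, was the lowest, at 370 in wild-type cells against 297 in knockout cells (-0.31). Psmg2, another chaperone of the core, was the highest, at 308 and 372 (0.27), with 2 of 2 measured probe sets higher. Chaperones of the same assembly step thus lay on both sides. Psmg1 was at 464 and 416 (-0.16) and Psmg3 at 642 and 585 (-0.13). Of the base chaperones, Psmd10, also known as gankyrin, was at 1335 and 1191 (-0.16), Psmd5 at 1074 and 1008 (-0.09) and Psmd9 at 220 and 245 (0.16). The second measured probe set of Psmd9 was at 81.1 and 127, near the floor, with the largest difference of any member probe set, 0.65.

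The ranges of the role groups overlapped. The medians of the alpha ring and of the assembly chaperones, the ends of the order, were 0.25 apart, and with no replicate arrays this gap has no error of its own and was not tested. The alpha ring had the highest median and the chaperones the lowest under quantile normalization and all 8 alternatives, relative to the median measured gene. The groups between them changed places. Leaving out scaling, centring on array medians and scaling on hybridisation controls each move all genes above the floor alike. Among themselves these settings could therefore hardly give different orders. Removing the floor left both medians as they were, at 0.12 and -0.13. The alternatives are thus not 8 separate checks of this order. Members just inside and outside the 25% size were Psmc3 (1.29-fold) and Psmg4 (1.24-fold). Psmd2 and Psmg1 are on chromosome 16, as the deleted microRNA is, and had differences of -0.13 and -0.16; whether their place bears on this was not tested.

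**Figure D3:**
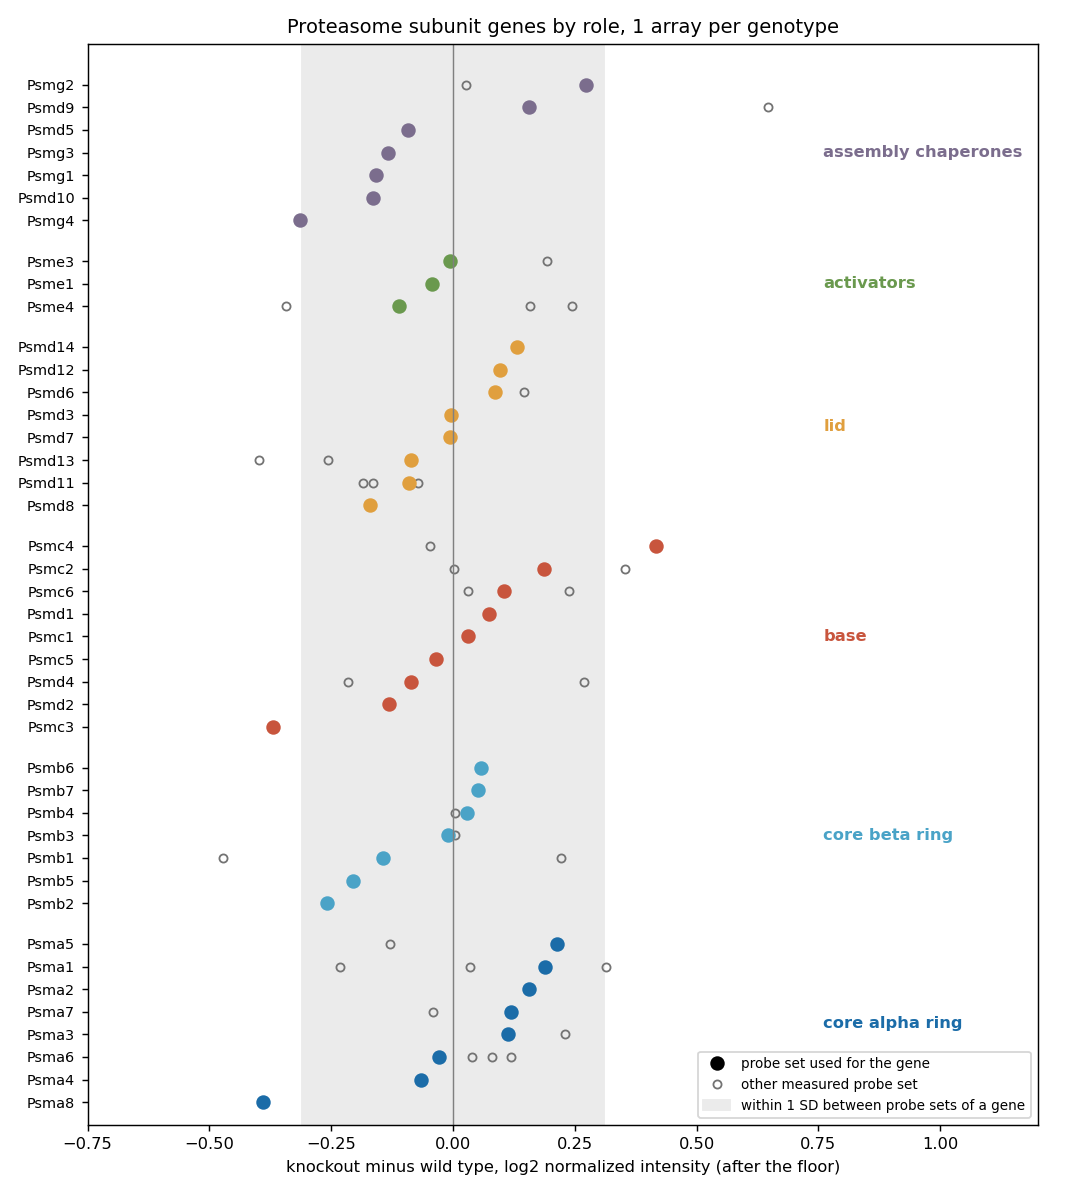
Log2 difference of knockout minus wild type (horizontal axis) for each measured proteasome subunit gene, ordered within its role group. Filled points are the probe set used for the gene, open points its other measured probe sets, and the grey band is 1 SD between probe sets of a gene (0.31). Only Psmc4, Psmc3, Psma8 and Psmg4 have filled points outside the band.

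Of the 92 member probe sets 74 were measured, and 3 of these were at least 25% higher in knockout and 5 at least 25% higher in wild-type cells, against 15.7% and 15.3% of all measured probe sets of 1 gene. Of those 8 probe sets, 6 had a mean signal under 250, where only 15 of the 74 lay. Among the 19 members with 2 or more measured probe sets, all probe sets shared a direction in 9, of which 7 were higher and 2, Psmd11 and Psmd13, lower. That is 47.4% of the 19, against 46.3% of all 5163 genes with 2 or more measured probe sets and 45.8% of the 2490 such genes in the brightest tertile. The other 23 measured members rest on 1 probe set each.

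The deposited signals, without any scaling, placed the members close to the median gene. The ratio of knockout to wild-type signal had a median of 1.47 over the measured members and of 1.49 over all measured genes, and 22 of the 42 members lay under the latter. These ratios were taken without the floor. With a floor on the deposited values the median measured gene had a log2 difference of 0.54, and 24 of the 42 members lay above it. The side on which most members lay thus turned when the floor and the set of measured genes changed together. For Psmc4 the deposited signals were 2579 and 5017, and for Psmc3 1323 and 1553. Both genes were thus brighter on the unscaled knockout array, Psmc3 by less than the typical gene. With each setting's own median gene as zero, the members' median lay between -0.03 and 0.02. Without that reference 39 members were at least 25% higher in knockout and 0 at least 25% higher in wild-type cells on the deposited values, and 13 and 1 with scaling on hybridisation controls, against 1 and 2 with quantile normalization.

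**Figure D4:**
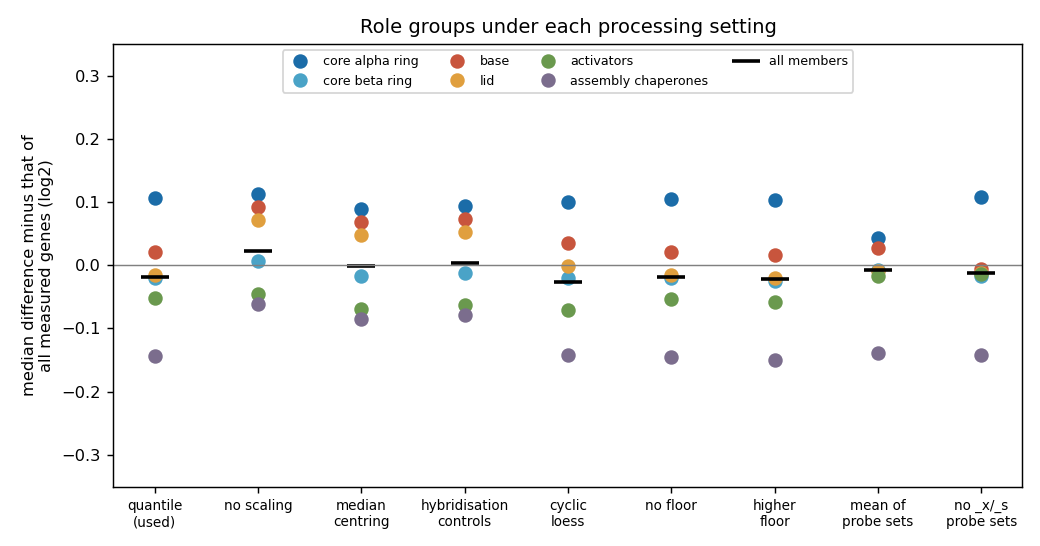
Median log2 difference of each role group minus that of all measured genes (vertical axis) under quantile normalization and the 8 alternatives (horizontal axis); the black bar is the median of all members. The members' median stays between -0.03 and 0.02, the alpha ring between 0.04 and 0.11 and the assembly chaperones between -0.15 and -0.06.

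The immunoproteasome subunits, which replace the catalytic beta subunits after interferon, had a median of -0.22, against -0.01 for the members. Psmb8 was at 4661 in wild-type cells against 3731 in knockout cells (-0.32), although its second, dimmer probe set differed by 0.12. Psmb9 was at 2995 and 2572 (-0.22), and Psmb10 at 2591 and 2347 (-0.14). All 3 lay on the same side, against 0.06 for Psmb6 and 0.05 for Psmb7. Psmb5, at -0.21, lay within their range, as did the structural subunits Psmb2 (-0.26) and Psmb1 (-0.14). With the mean of its measured probe sets Psmb8 was at -0.10. On the deposited values the immunoproteasome genes had differences of 0.22, 0.35 and 0.45 in that order, so that they were lower only relative to the median gene, at 0.54. With scaling on hybridisation controls, where the median gene was at 0.23, they were at -0.10, 0.02 and 0.12. With 1 array per genotype this gap could not be tested.

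Proteins that bind or finish the proteasome had a median of 0.05 over 11 measured genes of the 14 listed symbols. Of these 11 genes, 2 were at least 25% higher in knockout cells, against 15.0% of all measured genes. Usp14, a deubiquitinase of the regulatory particle, was at 946 in wild-type cells against 1406 in knockout cells (0.57), with 4 of 4 probe sets higher, the others by 0.11, 0.34 and 0.22. Ube3c, a ubiquitin ligase that acts at the proteasome, differed by 0.36 at 1 probe set and -0.19 at the other. Psmf1, which encodes an inhibitor of the core, was the lowest of the list, at 474 and 414 (-0.19). Pomp, the maturation factor of the core, differed by 0.04, and the lid component Sem1 by 0.19.

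Regulators of proteasome genes had an SD of 0.36 over their differences, against 0.34 for all measured genes and 0.17 for the members. Nfe2l2, the antioxidant response factor, was at 2816 in wild-type cells against 4703 in knockout cells (0.74), with 2 of 2 probe sets higher. It alone of the 9 measured genes of the list passed 50%, against 8.67% of all measured genes in either direction. Nfe2l1, whose product drives the proteasome genes when proteolysis is impaired, was at 570 and 406 (-0.49) at its 1 probe set. The 6 members with TGACNNNGC in their promoter, the core of the element both factors bind, had a median of 0.08 and a range from -0.21 to 0.16, with Psmb5 the lowest and Psmd9 the highest. Nfya, a subunit of the CCAAT-binding factor, was lower (-0.38, with 2 of 2 probe sets) and its partner Nfyb had a difference of 0.26. The 12 measured members with CCAAT had a median of 0.07. Members with CCGGAAG, 14 genes, had one of -0.06. Of the 9 measured regulators 6 were higher and 3 lower and the median was 0.09, and on the deposited values Nfe2l1 had a difference of 0.11 and Nfe2l2 one of 1.28, under and over the shift of 0.54.

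Upstream of the proteasome, 8 genes for ubiquitin shuttles and the unfolding ATPase Vcp had a median of 0.09. Rad23b, a shuttle, was the highest (0.33, with 4 of 4 probe sets higher) and Nsfl1c, a cofactor of Vcp, the lowest (-0.36), while Vcp itself differed by -0.04. Of the genes for ubiquitin and its activating enzymes only Uba6 was named on the arrays in the annotation used here; it differed by -0.48 at its brightest probe set, by 0.01 at the second and by -0.27 at the third. Other complexes of many subunits had medians near that of all measured genes, 0.01. The COP9 signalosome, whose subunits are related to those of the lid, had a median of 0.04 over 9 genes, from Cops2 (-0.17) to Cops4 (0.40). The CCT chaperonin, a ring complex of the cytosol, had one of 0.04 over 8 genes, from Tcp1 (-0.04) to Cct5 (0.35).

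**Figure D5:**
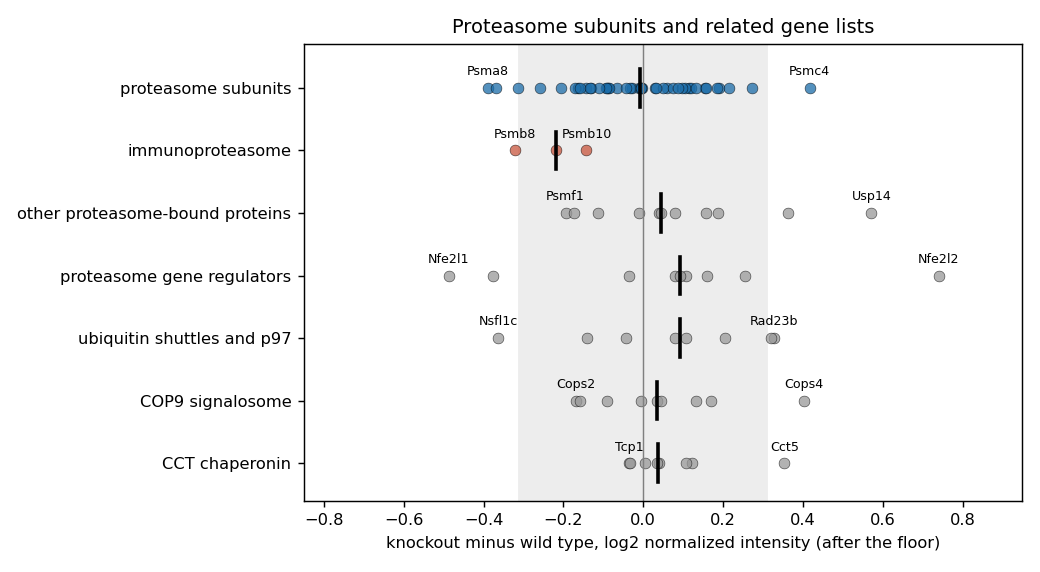
Log2 difference of knockout minus wild type (horizontal axis) for each measured gene of the proteasome subunits and of 6 related lists; vertical bars are list medians, the grey band is 1 SD between probe sets of a gene (0.31), and the lowest and highest gene of each list are named. The immunoproteasome genes lie between -0.32 and -0.14, and the regulators reach from -0.49 to 0.74.

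Markers of the cell types that the cultures could hold were examined beside these values. Of 13 measured dendritic cell markers 10 were lower and 3 higher (median -0.13), from Irf8 (-0.66) to Cd209a (0.40); their summed signal was 53581 in wild-type cells against 48917 in knockout cells, and 12 of the 13 lay above the floor on both arrays, as all 9 measured macrophage markers did. Macrophage markers had a median of 0.20 over 9 genes, with 7 higher, from Cd14 (-0.43) to Mrc1 (1.06) and a summed signal of 35991 and 36411, while C1qa lay below the floor and C1qb and C1qc above it. Among 9 measured granulocyte markers 7 were lower, the median being -0.36, with S100a8 the highest (0.43), Ltf at least 1.65-fold lower, and sums of 10820 and 12829. All 5 measured markers of B and plasma cells were lower at the probe sets used. Ighm differed by -2.37 and Jchain by -2.24. Of the 8 measured probe sets of Ighm, however, 5 were lower and 3 higher, so the direction differed within the gene. Of the other markers, which lay below the floor in knockout cells, Mzb1 was at least 3.75-fold, Cd79b at least 1.47-fold and Ms4a1 at least 1.45-fold lower. These 3 were measured only through the wild-type array, so their direction was fixed by that rule. The sums over the 5 markers were 1621 and 366, and Cd79a and Pax5 lay below the floor on both arrays. All 6 measured markers of mast cells and basophils were lower, among them Hdc (-0.90), Kit (-0.05) and Mcpt8 (at least 2.68-fold lower), with sums of 3317 and 1740. For 3 of them, Cpa3, Mcpt8 and Ms4a2, only the wild-type array was above the floor, so their direction was fixed by that rule. T and NK cell markers were dim, with Cd8a (0.24) and Cd4 (at least 1.13-fold higher) alone above the floor on an array, sums of 201 and 254, and Cd3e, Cd3d and Cd3g below it. Of the erythroid markers Epor alone was measured (-0.57, 101 and 67.6), and of 4 stromal markers Col1a2 (-0.29) was lower, Pdgfrb (0.11) higher, Lum at least 1.37-fold lower and Col1a1 at least 1.10-fold higher, with sums of 384 and 339. Flt3, Ltf, Cd4, Lum and Col1a1 were likewise above the floor on 1 array only, which fixed their direction. The part of these cell types in the values of the proteasome genes was not tested.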

How the data were processed

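The deposited table holds linear intensities of 45101 Affymetrix probe sets on 1 array per genotype. Per the labels' protocols, total RNA was extracted with Trizol and 6 ug of it was turned into biotinylated cRNA. How the authors summarised or scaled these intensities was not stated in the labels or the file headers. The 64 control probe sets were left out. Because the medians of the arrays differed by 34.1%, above a limit of 10%, log2 intensities of the other 45037 probe sets were quantile normalized (limma 3.58.1, R 4.3.3), which removes any difference in total signal. Values under the floor of 67.6, the median of all normalized values, were set to it; this floor was chosen here and is no detection call. Each gene was represented by the probe set whose mean over the arrays was highest. Gene names came from the platform annotation (34945 probe sets with 1 gene), chromosomes and sequences from RefSeq tables of GRCm38.p6.

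With 1 sample per group no test was made; sizes of 25% and 50% were compared with the share of all measured genes past them. All members could be named, and of every other list the lowest and highest measured gene; Usp14, Nfe2l1, Nfe2l2 and a few others were also described for their known roles. The members and lists were chosen with earlier results of these data known, and the motifs after the differences were seen. The functions were tested on simulated arrays. The alternatives changed the scaling, the floor or the probe sets used for a gene.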

Additional observations from a re-analysis of the deposited data

How the results depend on the processing

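Of 81 values of the group results and the probe set SD under alternatives, 67 were counted as close to the main value and 14 as moved. The rule was wide beside the group medians, so the count says little about their stability. The median of all members, -0.01 with quantile normalization and 0.23 with scaling on hybridisation controls, was counted as close. On deposited values with no scaling the median difference was 0.56 for all members, 0.65 for the alpha ring, 0.54 for the beta ring, 0.63 for the base, 0.61 for the lid, 0.49 for the activators and 0.48 for the assembly chaperones, with 39 members at least 25% higher in knockout and 0 at least 25% higher in wild-type cells. The median measured gene shifted by 0.54 there, and the groups lay from -0.06 to 0.11 relative to it. The same counts were 3 and 1 with centring on the array medians, where the median gene shifted by 0.14, and 13 and 1 with scaling on the 18 hybridisation controls, where it shifted by 0.23. With the floor at the 75th percentile 1 member was at least 25% higher in wild-type cells, since Psma8 was then not measured. With the mean of all measured probe sets of a gene the median of the alpha ring was 0.05 in place of 0.12. The count of members at least 25% higher in knockout cells stayed at 1, but the gene was Psmd9 (0.40) in place of Psmc4 (0.19).

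Without scaling every measured member other than Psma8 was higher in knockout cells. The difference of Psmc3 turned to 0.23 and that of the regulator Nfe2l1 to 0.11, both under the shift. Single genes were recomputed under the same alternatives, a choice made after seeing the data. Outside the unscaled values, 333 of 335 stayed within the probe set SD of the main value, and the exceptions were Psma8 with no floor (-1.04) and Psme4 when probe sets with _x or _s in their names were left out (0.24). This rule was wide too, since 38 of the 42 members had differences smaller than the SD. With scaling on hybridisation controls Psmb2 went from -0.26 to 0.02 and Psmb9 from -0.22 to 0.02, and both were counted as close. The count thus says little about the direction of single genes. The SD itself was 0.29 over probe sets above the floor on both arrays, also added after seeing the data. No paired analysis was possible because each genotype has 1 array. Dim members, such as Psma8, Psmd9 and the Psmg genes, are the least certain, and a small difference between 2 arrays does not show that a gene was unchanged.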
